A study of Mus musculus with 36 samples.

Results

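The surface antigens by which germ cells and stem cells are recognised were followed as 10 genes: *Kit*, *Kitl*, *Pecam1*, *Itgb3*, *Fut4*, *Alpl*, *Cd24a*, *Cd38*, *Cxcr4* and *Cd9*. The rule names them and uses no measured value, and asks which of them move with *Kit*. Earlier results of these data were known when the members were chosen. All are protein-coding. They are 10 of the 50600 genes listed for the sorted Day 3 cells and 10 of the 29267 genes listed for the other libraries. Expected counts and TPM (the usual level per length of transcript, scaled to a fixed total per library) were read in all 11 bulk RNA-seq libraries of the study.

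The study converts mouse epiblast stem cells (EpiSCs), which are primed pluripotent cells, towards the naïve state with BMP4, and 3 experiments of it were used. In the first, c-Kit+ and c-Kit- cells were sorted with an antibody to c-Kit at Day 3 of this conversion, after culture in iCD1 medium (vitamin C, bFGF, LiCl, LIF and CHIR99021) with BMP4, the EZH2 inhibitor EPZ6438 and a DOT1L inhibitor, and gave 2 libraries each. In the second, 3 libraries of EpiSCs kept in Activin A, bFGF and XAV939 stand beside 2 libraries of BV+SC+ cells, which carry *Blimp1*-mVenus and *Stella*-ECFP transgenes, were made from reporter EpiSCs that had been derived from embryonic stem cells, and were sorted at Day 6 as double-positive cells that the labels call PGCLC (primordial germ cell-like cells). In the paper's protocol such cells spend the first 3 days in the medium above, with BMP4, EPZ6438 and a DOT1L inhibitor, and then change to a second medium. The BV+SC+ cells and EpiSCs thus differ in inhibitors and medium as well. In the third, unsorted Day 3 cells with and without the DOT1L inhibitor SGC0946 gave 1 library each, so nothing can be tested there. By the same protocol their medium also held BMP4 and EPZ6438.

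The BV+SC+ libraries are named for different media, 2iJi for replicate 1 and GK15 for replicate 2, so medium and replicate cannot be told apart. The labels do not say whether the EpiSC libraries come from the reporter line, nor whether replicates are separate cultures, so p-values measure the spread between these libraries, which may be technical.

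c-Kit is a receptor tyrosine kinase at the surface of migrating primordial germ cells, and its ligand, stem cell factor (*Kitl*), is made by the cells around them and keeps them alive and moving. CXCR4 with its ligand CXCL12 guides the same cells to the gonad. Tissue-nonspecific alkaline phosphatase (*Alpl*), the adhesion molecule PECAM1, integrin β3 (*Itgb3*, CD61) and the SSEA-1 sugar that fucosyltransferases of the *Fut4* and *Fut9* kind make are the classical antigens by which germ cells and pluripotent cells are stained or sorted. CD9, CD24 and CD38 are found on many stem cell and germ cell types and on other cells too.

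On GRCm38, in the GENCODE annotation, *Kit* lies at chr5:75574916-75656722 (plus strand) with *Cd38* on the same chromosome at chr5:43868553-43912375 (plus). *Kitl* lies at chr10:100015630-100100416 (plus) and *Cd24a* at chr10:43578284-43584265 (plus). *Pecam1* lies at chr11:106654217-106750628 (minus) and *Itgb3* at chr11:104608000-104670476 (plus). The others are *Cxcr4* at chr1:128588199-128592293 (minus), *Alpl* at chr4:137741733-137796384 (minus), *Cd9* at chr6:125460266-125494791 (minus) and *Fut4* at chr9:14748320-14752393 (minus). Values are summed over all transcripts of a gene.

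Depth was lowest in the sorted cells, at 1726038 to 1841442 expected counts, and was 2444211 to 3070115 in EpiSCs, 4577685 to 4776143 in the SGC0946 experiment and 14778809 to 18099059 in BV+SC+ cells. Sums of marker genes differed between the groups. *Prdm1* (*Blimp1*) and *Dppa3* (*Stella*) are the genes behind the BV and SC reporters, so their levels in BV+SC+ cells were selected by the sort. The summed TPM of 5 germ cell genes (*Prdm1*, *Prdm14*, *Dppa3*, *Nanos3* and *Tfap2c*) was 0.95 to 1.47 in EpiSCs and 1542 to 1605 in BV+SC+ cells, and that of 4 primed epiblast genes (*Fgf5*, *Otx2*, *Dnmt3b* and *Pou3f1*) was 1007 to 1082 in EpiSCs and 22.7 to 95.03 in BV+SC+ cells. In the sorted cells, 6 trophoblast genes (*Plac1*, *Gata2*, *Gata3*, *Krt8*, *Elf5* and *Hand1*) summed to 2726 to 3101 TPM in c-Kit- and 419 to 586 TPM in c-Kit+ libraries, and 4 pluripotency genes (*Pou5f1*, *Sox2*, *Nanog* and *Utf1*) to 150 to 179 TPM in c-Kit- and 2030 to 2083 TPM in c-Kit+ libraries.

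*Kit* itself was measured at 99.6 and 96.0 TPM in the c-Kit+ libraries and at 4.81 and 3.24 TPM in the c-Kit- libraries, from 458 and 479 against 9 and 16 expected counts. The sort used its protein, so this difference of 5.28 ± 0.21 (SE) on the log2 scale checks the labels and is no finding. In the c-Kit- libraries the TPM of *Kit* has a different order from its counts, since the effective length assigned to the gene was 1927 bases in replicate 1 and 5161 bases in replicate 2. In BV+SC+ cells, which were not sorted on c-Kit, *Kit* stood at 146 and 169.95 TPM, against 6.24, 6.34 and 7.27 TPM in EpiSCs. The groups did not overlap, and the fitted difference was 29.99-fold, 4.91 ± 0.18 on the log2 scale (edgeR, adjusted p = 3.12e-06). Unsorted Day 3 cells held 102 TPM without and 119.6 TPM with SGC0946.

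**Figure D1:**
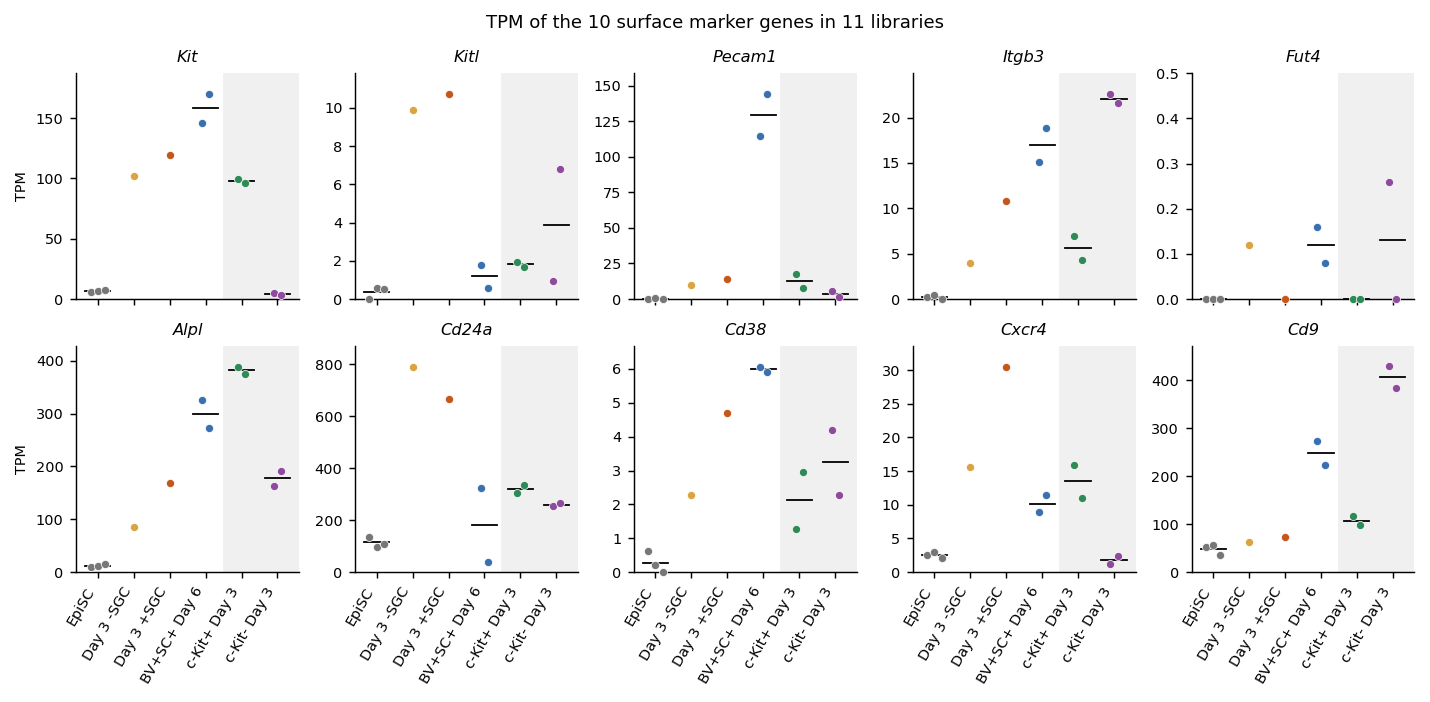
TPM of each member (vertical axis, linear from 0) in the 6 groups; each point is a library and the line is the mean of a group with more than 1 library. Grey shading marks the sorted cells, whose TPM were computed over a longer gene list. *Kit* is high in BV+SC+ and c-Kit+ cells and in unsorted Day 3 cells, while *Itgb3* and *Cd9* are highest in c-Kit- cells.

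The comparisons with replicates gave different answers to the question of which antigens follow *Kit*. With SGC0946, *Kit* itself stayed within 2-fold (119.6 against 102 TPM, 1 library each), so that experiment gave no answer. *Cxcr4*, *Alpl* and *Pecam1* were higher with *Kit* both in c-Kit+ cells and in BV+SC+ cells. *Itgb3* and *Cd9* were higher in BV+SC+ cells than in EpiSCs and lower in c-Kit+ than in c-Kit- cells. *Cd24a* passed the threshold in neither comparison, *Kitl* was not called in the sorted cells and could not be tested in BV+SC+ cells, *Cd38* could be tested only in BV+SC+ cells and EpiSCs, and *Fut4* was close to absent from the counts of every library.

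Genes that differed by more than 2-fold at an unadjusted p below 0.05 were called, and the p adjusted over all genes tested is given beside each value. Between c-Kit+ and c-Kit- cells, 8 of the 10 members had enough counts to be tested, *Cd38* and *Fut4* being left out, and 4 were called higher (*Kit*, *Cxcr4*, *Pecam1* and *Alpl*) and 2 lower (*Itgb3* and *Cd9*). Over all 11018 genes tested, 10.8% were called higher and 13.6% lower, or 24.4% in either direction. The median log2 change was 0.86 over the 8 members and 0.03 over all genes. Between BV+SC+ cells and EpiSCs, 8 members were tested, *Kitl* and *Fut4* being left out, and 7 were called higher and 0 lower at a background of 17.2% higher and 17.8% lower, or 35.0% in either direction, of 11792 genes. Their median log2 change was 4.58, against 0.05 over all genes. At an adjusted p below 0.05 and any fold, 5 members were higher in c-Kit+ cells, *Cd24a* being the added one (adjusted p = 0.0607 with DESeq2 and 0.115 with edgeR without c-Kit+ replicate 2), where 20.2% of all genes were higher and 41.5% differed in either direction, and 7 in BV+SC+ cells, where 29.6% were higher and 56.0% differed in either direction. *Pecam1*, *Itgb3*, *Cd38* and *Cxcr4* had at most 7 counts in any EpiSC library and passed the filter on low counts only through BV+SC+ cells, and *Cxcr4*, *Pecam1* and *Kit* passed it in the sorted cells only through c-Kit+ cells. Such a member had to differ to be tested, so the counts of called members and their medians are descriptions and support nothing about the members as a group. The same holds for other genes named here that are near 0 in 1 of the groups compared. With SGC0946, 9 members had over 1 TPM in at least 1 library and 1 of them, *Itgb3*, was past 2-fold, where 6.33% of 14038 genes were past 2-fold higher and 3.45% lower, or 9.78% in either direction.

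**Figure D2:**
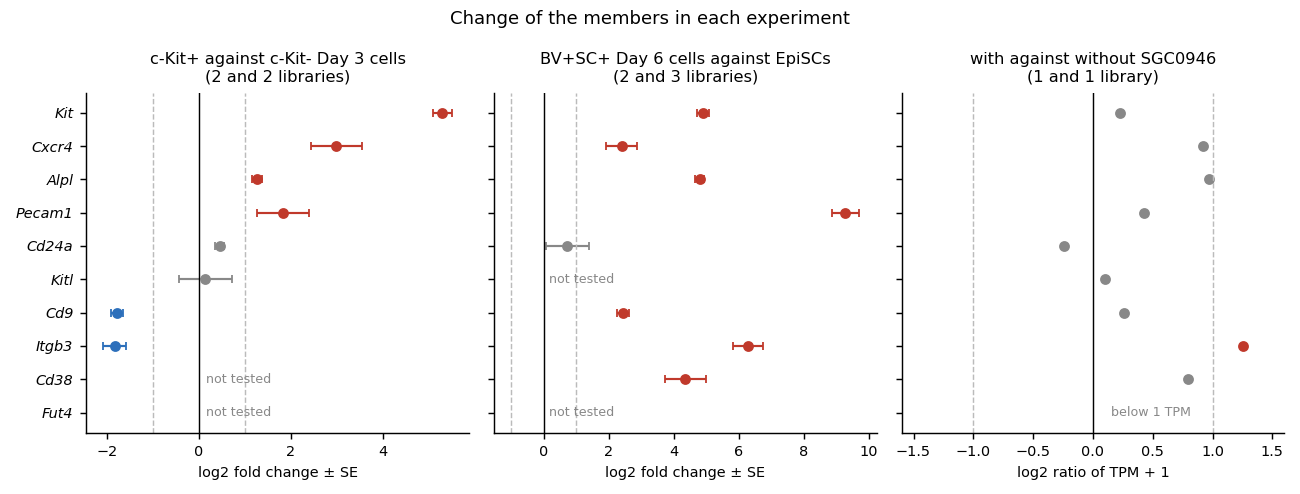
Change of each member (horizontal axis, log2) in the 3 experiments; bars are the standard error of edgeR's estimate, and the third panel, with 1 library per condition, has none. Red marks members called higher, blue those called lower, and the dashed lines mark 2-fold. *Itgb3* and *Cd9* lie to the left of 0 in the sorted cells and to the right of 2-fold in BV+SC+ cells.

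The promoters of *Kit*, of *Cxcr4* and *Alpl*, which moved with it, and of *Cd9*, which moved against it in the sorted cells, are shown because these members differ in whether they moved together. They come from RefSeq on GRCm38.p6, whose promoter table held 7 of the 10 members (all but *Pecam1*, *Itgb3* and *Cd24a*), and each is printed 5′ to 3′ from 250 bases before the RefSeq start, up to the base before that start or before the annotated gene, whichever comes first, with the motifs found in capitals.
Kit, chr5:75574737-75574915, plus strand: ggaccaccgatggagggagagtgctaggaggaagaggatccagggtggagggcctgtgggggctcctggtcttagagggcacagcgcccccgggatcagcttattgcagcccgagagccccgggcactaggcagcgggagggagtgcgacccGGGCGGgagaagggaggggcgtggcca
Cxcr4, chr1:128592300-128592549, minus strand: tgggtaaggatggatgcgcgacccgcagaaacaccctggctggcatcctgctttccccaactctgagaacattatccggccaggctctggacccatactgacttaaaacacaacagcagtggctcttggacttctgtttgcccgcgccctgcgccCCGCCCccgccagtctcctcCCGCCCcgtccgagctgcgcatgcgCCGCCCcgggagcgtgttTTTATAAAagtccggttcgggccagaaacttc
Alpl, chr4:137796385-137796634, minus strand: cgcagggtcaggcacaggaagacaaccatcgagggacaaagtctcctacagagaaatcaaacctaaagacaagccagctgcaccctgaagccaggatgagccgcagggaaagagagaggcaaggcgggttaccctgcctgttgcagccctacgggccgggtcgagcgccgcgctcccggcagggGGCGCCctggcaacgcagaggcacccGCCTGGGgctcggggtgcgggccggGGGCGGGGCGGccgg
Cd9, chr6:125494792-125495010, minus strand: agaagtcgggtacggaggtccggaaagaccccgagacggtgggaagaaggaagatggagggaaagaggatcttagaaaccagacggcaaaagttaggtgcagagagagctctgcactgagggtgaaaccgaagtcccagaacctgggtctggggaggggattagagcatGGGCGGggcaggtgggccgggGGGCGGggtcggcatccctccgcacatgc
The capitals mark matches on either strand to GGGCGG, known as the GC box, to TATAAA, at which the TATA-binding protein binds, to GCCTGGG, a site of the TFAP2 factors, or to GGCGCC, a site of SMAD1 and SMAD5. Other letters were searched in the 9 windows of 300 bases that the 7 members have. The CCAAT box was in none of them, nor was the E-box CACGTG. The octamer TTTGCAT, the SOX motif CATTGT and the PRDM1 motif ACTTTC were in none either. The motif of the GATA factors, AGATAA, was in the window of *Cd38* alone. A GC box was in the windows of *Kit*, *Kitl*, *Alpl*, *Cxcr4* and *Cd9* and in 35.7% of all 32851 windows, and TATAAA was in those of *Kitl*, *Alpl* and *Cxcr4* and in 13.6% of all. *Alpl* has windows at chr4:137796335-137796634 and at chr4:137766426-137766725, and only bases of the former are printed. Its match to TATAAA is not among the printed bases. GCCTGGG was in windows of *Fut4*, *Alpl* and *Cd38*, and GGCGCC in those of *Fut4* and *Alpl*. In *Cxcr4* the match to TATAAA overlaps its reverse, and in *Alpl* GC boxes overlap each other. Of all windows, 37.4% held the CCAAT box, 7.15% the E-box, 4.63% the octamer, 12.6% the SOX motif, 14.3% the PRDM1 motif, 11.2% the GATA motif, 12.0% the TFAP2 motif and 11.9% the SMAD motif. The GC box was present in members that rose with *Kit* and in *Cd9*, and a match in letters is a description, not a bound site.

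*Kitl*, which encodes the ligand of c-Kit, was low on both sides of the gate. Its counts were 10 and 10 in the c-Kit+ and 5 and 14 in the c-Kit- libraries, or 1.92 and 1.70 TPM against 0.93 and 6.78 TPM. The groups overlapped, and the fitted change was 0.13 ± 0.58 on the log2 scale (adjusted p = 0.872). The ratio of summed counts was 1.07, with a 95% interval of 0.54 to 2.12 that covers counting error only, and a difference within these bounds was not detectable at this depth. In BV+SC+ cells *Kitl* was at 1.80 and 0.57 TPM and in EpiSCs at 0, 0.58 and 0.54 TPM, and the ranges met. It had 87 and 33 counts in BV+SC+ and 0, 1 and 4 in EpiSC libraries, and the filter on low counts removed it. *Cd38* was as low in EpiSCs (3, 1 and 0 counts) but passed this filter through BV+SC+ cells (150 and 176 counts). Low counts in EpiSCs alone thus did not bar a test, and *Kitl* was also low in BV+SC+ replicate 2. The ratio of the summed counts of *Kitl* between BV+SC+ cells and EpiSCs was 6.19, with a counting interval of 2.58 to 19.4. The highest levels of the ligand were those of unsorted Day 3 cells, at 9.91 TPM without and 10.7 TPM with SGC0946. There the ratio of counts was 1.10 (0.87 to 1.40).

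Genes that carry the signal of c-Kit inside the cell were called in both directions. Of 43 genes of c-Kit signalling (adaptors, PI3 kinase and AKT, SRC family kinases, phosphatases, STATs and inhibitors), 3 were called higher and 11 lower in c-Kit+ cells, with a median log2 change of -0.15 against 0.03 over all genes, of which 10.8% were higher and 13.6% lower. The largest differences were those of *Gab2*, a docking protein (-2.62 ± 0.26, adjusted p = 6.55e-05), *Stat5a*, a transcription factor (-2.58 ± 0.63, adjusted p = 0.00980), *Sh2b2*, an adaptor (-2.46 ± 0.25, adjusted p = 6.60e-05), and *Lyn*, a SRC family kinase (-2.44 ± 0.49, adjusted p = 0.00343). The 3 higher genes were *Spred1* (2.26 ± 0.16) and *Spred2* (2.24 ± 0.17), which encode inhibitors of the RAS-ERK pathway, and the phospholipase *Plcg1* (1.04 ± 0.13). *Spred1* was lower in BV+SC+ cells than in EpiSCs (-1.55 ± 0.18, adjusted p = 0.000255). Many of these genes serve other receptors as well.

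Between BV+SC+ cells and EpiSCs 42 genes of this list were tested, and 5 were called higher and 12 lower, with a median of -0.35 and a background of 35.0% called in either direction. *Sh2b2* was lower by the most (-4.25 ± 0.35, adjusted p = 5.53e-05), followed by *Stat5b* (-3.08 ± 0.27) and the adaptor *Grb10* (-3.06 ± 0.54). *Ptpn6*, the phosphatase SHP-1 that limits c-Kit signalling, was higher (3.11 ± 0.15, adjusted p = 7.07e-06), at 108 and 89.3 TPM against 20.2, 12.0 and 12.7 TPM. In c-Kit+ cells *Ptpn6* was on the lower side and not called (-0.99 ± 0.30, adjusted p = 0.0241). *Ptpn6* was also the 1 gene of the list past 2-fold with SGC0946, at 12.2 against 5.31 TPM, where the median of 43 genes was -0.03 and 0 were past 2-fold lower. The shares of all genes past 2-fold with SGC0946 were 6.33% higher and 3.45% lower.

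*Cxcr4*, the chemokine receptor of migrating germ cells, was called higher in both replicated comparisons, in each of which it was tested only through the group where it is high. It had 27 and 20 counts in c-Kit+ libraries and 2 and 4 in c-Kit- libraries, or 15.96 and 10.99 TPM against 1.19 and 2.42 TPM. The groups were apart, by 7.91-fold or 2.98 ± 0.56 on the log2 scale (adjusted p = 0.00248). It stood at 8.97 and 11.4 TPM in BV+SC+ cells and in EpiSCs at 2.56, 2.99 and 2.16 TPM, a 5.30-fold difference (2.41 ± 0.48, adjusted p = 0.00350). Unlike *Kit*, the receptor was highest in the unsorted Day 3 cells with SGC0946, at 30.5 TPM, and the library without it held 15.6 TPM. The ratio of their counts, 116 to 58, was 1.92 (1.39 to 2.67).

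The ligand of CXCR4, *Cxcl12*, was high in the same c-Kit+ libraries as its receptor but not in BV+SC+ cells. It stood at 167 and 151 TPM in c-Kit+ and 17.5 and 21.6 TPM in c-Kit- cells (9.54-fold, 3.25 ± 0.16 on the log2 scale, adjusted p = 1.28e-06). BV+SC+ cells held 1.58 and 5.10 TPM and EpiSCs 3.11, 4.56 and 4.91 TPM, which overlapped (-0.36 ± 0.48, adjusted p = 0.544). *Ackr3*, the other receptor of CXCL12, had 0 counts in each of the 3 EpiSC libraries and 151 and 124 in BV+SC+ libraries, at least 6.95-fold higher against 3 counts per library. In the sorted cells it stood at 3.76 and 6.67 TPM in c-Kit+ and 13.1 and 8.04 TPM in c-Kit- cells, and the difference was not called (-0.86 ± 0.42, adjusted p = 0.132). With SGC0946, *Cxcl12* was at 159.5 against 133 TPM and *Ackr3* at 10.0 against 8.77 TPM.

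**Figure D3:**
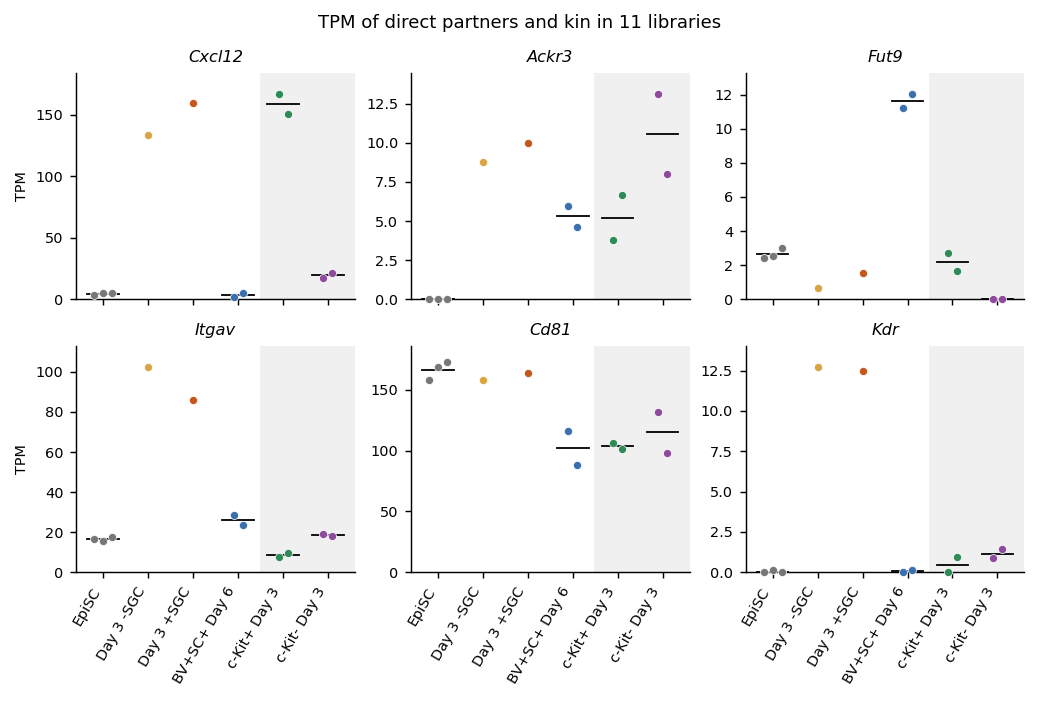
TPM (vertical axis, linear from 0) of 5 genes whose products bind, modify or accompany a member and of *Kdr*, a genomic neighbour of *Kit*, in the 6 groups; points are libraries, lines are means, and shading marks the sorted cells. *Cxcl12* is high in c-Kit+ and unsorted Day 3 cells but not in BV+SC+ cells, and *Fut9* is highest in BV+SC+ cells and at 0 in c-Kit- cells.

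*Alpl*, whose product is the alkaline phosphatase by which germ cells and stem cell colonies are stained, was called higher in both replicated comparisons, by very different amounts. In the sorted cells it was abundant on both sides of the gate, at 388 and 375 TPM in c-Kit+ and 164 and 192 TPM in c-Kit- libraries. The difference was 2.40-fold (1.26 ± 0.11 on the log2 scale, adjusted p = 2.76e-05), without overlap. BV+SC+ cells held 326 and 273 TPM of it, against 10.6, 11.2 and 15.4 TPM in EpiSCs, 28.0-fold apart (4.81 ± 0.13, adjusted p = 1.42e-06). With SGC0946 it was at 168 TPM and without at 85.4 TPM, a ratio of counts of 2.00 (1.80 to 2.23), and on the scale of log2(TPM + 1) the change of 0.97 fell just short of 2-fold.

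*Pecam1*, an adhesion molecule of endothelium, blood and pluripotent cells, showed the largest change of the members in BV+SC+ cells. Its expected counts were 3087 and 4562 there and 0, 2.97 and 0 in EpiSCs, or 115 and 144 TPM against 0, 0.84 and 0 TPM. The ratio of summed counts was 658, with a counting interval of 225 to 3191, and the fitted 9.29 ± 0.43 (adjusted p = 6.20e-06) depends on the prior count added to the near-empty EpiSC libraries and ran from 8.67 without EpiSC replicate 1 to 14.11 without EpiSC replicate 2, where no count is left. In the sorted cells it was far lower, with 53 and 25 counts in c-Kit+ and 18 and 5 in c-Kit- libraries, or 17.4 and 7.52 TPM against 5.88 and 1.66 TPM. The groups did not overlap but came near each other, and the 3.55-fold difference (1.83 ± 0.57, adjusted p = 0.0280) was not called without c-Kit+ replicate 1 (log2 change 1.11, adjusted p = 0.246). It was 2.98 without c-Kit- replicate 1 and 1.16 without c-Kit- replicate 2, so its size rests on single libraries. With SGC0946 it was at 13.9 against 10.1 TPM.

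Other genes of endothelium and blood, as listed here, were low in these libraries. The 6 endothelial genes (*Cdh5*, *Tek*, *Tie1*, *Emcn*, *Vwf* and *Erg*) summed to 2.48 to 9.02 TPM in BV+SC+ cells, 0.65 to 2.98 TPM in EpiSCs, 1.88 to 2.55 TPM in c-Kit+ and 2.65 to 5.56 TPM in c-Kit- cells, with *Emcn* and *Erg* at 0 in both BV+SC+ libraries and in all 4 sorted libraries. In unsorted Day 3 cells the endothelial genes summed to 6.34 TPM without and 3.79 TPM with SGC0946, with 5 and 3 of them over 3 counts. The 5 blood genes (*Ptprc*, *Cd34*, *Gata1*, *Tal1* and *Spi1*) summed to at most 2.88 TPM in any library. None of either list was tested in the replicated comparisons.

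*Itgb3*, the integrin β3 chain known as CD61, went against *Kit* in the sorted cells. It had 39 and 26 counts in c-Kit+ and 125 and 118 in c-Kit- libraries, or 6.98 and 4.32 TPM against 22.6 and 21.6 TPM. It was thus 3.56-fold lower in c-Kit+ cells (-1.83 ± 0.24 on the log2 scale, adjusted p = 0.000354), and the groups did not overlap. Its level in BV+SC+ cells was 15.1 and 18.8 TPM, against 0.21, 0.43 and 0 TPM in EpiSCs (6 counts in all), a fitted 78.2-fold difference (6.29 ± 0.46, adjusted p = 3.18e-05, and 7.23 without EpiSC replicate 2), and the ratio of counts was 80.4 (36.9 to 219). With SGC0946 it was the 1 member past 2-fold, at 10.8 against 3.94 TPM, from 160 and 55 counts (ratio 2.79, interval 2.04 to 3.86).

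Of the α chains that pair with integrin β3, *Itgav* was called in neither replicated comparison. It stood at 7.47 and 9.56 TPM in c-Kit+ and 19.0 and 17.9 TPM in c-Kit- cells (-0.67 ± 0.24, adjusted p = 0.0453) and at 28.4 and 23.4 TPM in BV+SC+ cells and 16.4, 15.6 and 17.7 TPM in EpiSCs (0.85 ± 0.15, adjusted p = 0.00204), below 2-fold on the fitted scale in both. It was at 103 TPM without and 86.0 TPM with SGC0946, a log2 change of -0.25 on the TPM + 1 scale where that of *Itgb3* was 1.25. *Itga2b*, the α chain of platelets, had at most 34 counts in any library and was tested in neither comparison. Its 6 counts with and 5 without SGC0946 gave a TPM + 1 ratio past 2-fold, and their ratio of 1.15 had an interval of 0.29 to 4.76.

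*Cd9*, a tetraspanin of stem cells, trophoblast and many epithelia, was, like *Itgb3*, lower in c-Kit+ and higher in BV+SC+ cells. It was at 116 and 98.8 TPM in c-Kit+ and 428 and 384 TPM in c-Kit- cells, 3.43-fold lower in c-Kit+ cells (-1.78 ± 0.13 on the log2 scale, adjusted p = 1.15e-05). Levels in BV+SC+ cells were 274 and 223 TPM and in EpiSCs at 51.6, 57.4 and 35.5 TPM, 5.43-fold higher (2.44 ± 0.20, adjusted p = 4.86e-05). Neither pair of groups overlapped. With SGC0946 it stood at 73.9 against 61.7 TPM (ratio of counts 1.24, interval 1.00 to 1.54). Other tetraspanins also differed between the sorted cells: *Cd82* was lower in c-Kit+ cells (-3.77 ± 0.45, adjusted p = 0.000183), while *Cd81*, a close relative, was at 107 and 101 against 132 and 98.2 TPM and overlapped (-0.00 ± 0.17, adjusted p = 0.994). *Cd151* was also lower in c-Kit+ cells (edgeR, -1.32 ± 0.17, adjusted p = 0.000292), and *Cd63* was not called (-0.16 ± 0.11, adjusted p = 0.284). *Ptgfrn*, whose product binds CD9, was at 47.4 and 41.7 against 60.7 and 54.5 TPM, without overlap, and was not called (-0.23 ± 0.12, adjusted p = 0.156). *Igsf8*, also counted among the partners and kin of the members, was lower (-1.04 ± 0.16, adjusted p = 0.000674). Between BV+SC+ cells and EpiSCs *Cd81* was at 116 and 88.2 against 158, 169 and 173 TPM (-0.64 ± 0.15, adjusted p = 0.00786), and *Ptgfrn* at 49.1 and 45.0 against 46.1, 56.0 and 50.6 TPM (-0.03 ± 0.12, adjusted p = 0.841).

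In the sorted cells *Itgb3* and *Cd9* differed in the same direction as most trophoblast genes of the list above. Of the 6 in that list, 5 were tested between the sorted cells and 4 were called lower in c-Kit+ cells (*Plac1*, *Gata2*, *Hand1* and *Krt8*) and 0 higher. Over all genes tested there, 13.6% were called lower and 10.8% higher. The log2 change was -3.52 for *Gata2* and -2.22 for *Krt8*, and none of the 6 genes was at 3 counts or fewer in the c-Kit- libraries. In BV+SC+ cells, where *Itgb3* and *Cd9* were higher than in EpiSCs, the same genes summed to 22.3 to 71.8 TPM against 8.78 to 14.6 TPM. In unsorted Day 3 cells they summed to 1061 TPM without and 843 TPM with SGC0946. There *Itgb3* was at 3.94 TPM without and 10.8 TPM with SGC0946, and *Cd9* at 61.7 and 73.9 TPM. The trophoblast sum was thus lower, and both members higher, in the library with SGC0946. In these bulk samples, fewer cells of a type and less RNA per cell cannot be told apart, and the part of trophoblast gene expression in the levels of *Itgb3* and *Cd9* was not tested.

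*Cd24a*, which encodes a small glycoprotein anchored in the membrane, was abundant in every group. In the sorted cells it was at 305 and 335 TPM in c-Kit+ and 253 and 265 TPM in c-Kit- libraries, 1.36-fold apart without overlap (0.45 ± 0.11, adjusted p = 0.00841), below the 2-fold threshold. It was the member with the widest split between replicates, with 323 TPM for BV+SC+ replicate 1, 40.1 TPM for replicate 2, and 137, 96.3 and 109 TPM in EpiSCs between them. The fitted change of 0.72 ± 0.66 was not called (adjusted p = 0.380), and it was -1.41 without BV+SC+ replicate 1 (adjusted p = 3.42e-05) and 1.55 without replicate 2 (adjusted p = 3.29e-06). The BV+SC+ libraries were 8.07-fold apart in TPM at *Cd24a*, from 4533 and 675 counts. As large a difference on the log2(TPM + 1) scale separated them at 28 of 13574 genes (0.206%), while 11.4% differed by more than 2-fold. With SGC0946 the gene was at 666 and without at 789 TPM, the highest levels of any group, and it was the 1 member of the 9 that was lower with the inhibitor (ratio of counts 0.858, interval 0.815 to 0.903).

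**Figure D4:**
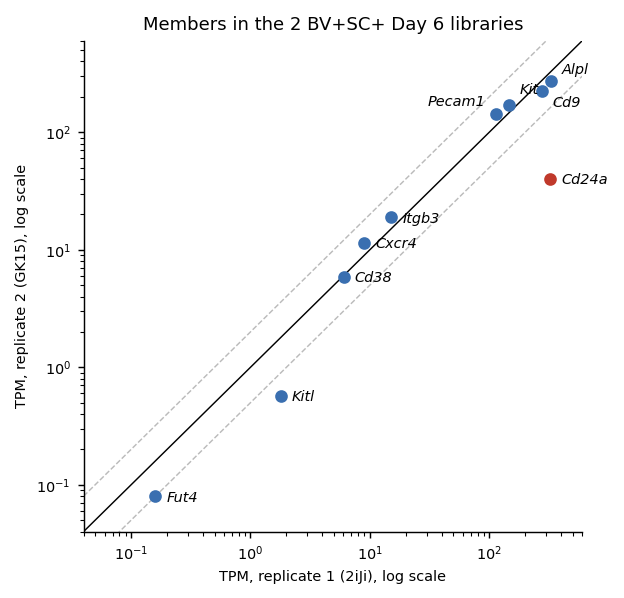
TPM of the members in BV+SC+ replicate 1 (horizontal axis, log scale) and replicate 2 (vertical axis, log scale); the solid line marks equal levels and the dashed lines 2-fold. *Cd24a* lies far below the lower dashed line, at 323 and 40.1 TPM, and *Kitl* lies below it at 1.80 and 0.57 TPM.

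*Kitl* was 3.16-fold higher in BV+SC+ replicate 1 in TPM (87 and 33 counts, ratio 3.23 with an interval of 2.14 to 4.98), and *Fut4* rested on 5 and 3 counts. *Kit*, *Pecam1*, *Itgb3*, *Cxcr4*, *Alpl*, *Cd9* and *Cd38* differed between them by at most 1.27-fold in TPM, with *Kit*, *Pecam1*, *Itgb3* and *Cxcr4* higher in replicate 2 and *Alpl*, *Cd9* and *Cd38* higher in replicate 1.

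*Cd38*, the NAD-consuming ectoenzyme that also marks blood lineages, was low throughout. It had 3, 1 and 0 counts in EpiSCs and 150 and 176 in BV+SC+ libraries, or 0.62, 0.22 and 0 TPM against 6.05 and 5.92 TPM, and was higher there (4.36 ± 0.64 on the log2 scale, adjusted p = 0.000831, ratio of counts 21.0 with an interval of 8.14 to 77.7). Without EpiSC replicate 1 the log2 change was 5.66. In the sorted cells it had 4 and 7 counts in c-Kit+ and 13 and 7 in c-Kit- libraries, which the filter on low counts removed, and the ratio of 0.559 had an interval of 0.242 to 1.22. A difference in the sorted cells was therefore not detectable at this depth. With SGC0946 it was at 4.69 against 2.28 TPM, from 35 and 16 counts (ratio 2.10, interval 1.13 to 4.06), below 2-fold on the TPM + 1 scale. *Bst1*, the related enzyme CD157, had 0 to 15 counts in any library and was tested nowhere.

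*Fut4*, a fucosyltransferase of the SSEA-1 epitope, had at most 5 counts in any of the 11 libraries. There were 5 and 3 counts in BV+SC+ cells, 1 in a c-Kit- library and 1 in the Day 3 library without SGC0946, and none in the other 7. *Fut9*, a related enzyme that makes the same epitope, had 23 and 21 counts in c-Kit+ libraries and 0 in both c-Kit- libraries, at least 7.41-fold higher against 3 counts per library (adjusted p = 0.000573). Levels were 11.2 and 12.0 TPM in BV+SC+ cells and in EpiSCs at 2.41, 2.51 and 2.99 TPM (5.33-fold, 2.41 ± 0.17 on the log2 scale, adjusted p = 2.63e-05). It was at 1.54 TPM with and 0.67 TPM without SGC0946, from 49 and 20 counts (ratio 2.35, interval 1.37 to 4.17). *Fut9* entered the test of the sorted cells only through the c-Kit+ libraries.

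*Pdgfra* and *Kdr*, receptor tyrosine kinase genes that lie next to *Kit* on chromosome 5, were low where *Kit* was high in the sorted and the BV+SC+ cells. *Pdgfra* was lower in c-Kit+ than in c-Kit- cells (1.36 and 0.51 against 4.28 and 2.90 TPM, -2.51 ± 0.54, adjusted p = 0.00486), and *Kdr* had at most 8 counts in any sorted library. Where *Kit* was at 146 and 169.95 TPM, in BV+SC+ cells, *Pdgfra* was at 0.32 and 0.19 TPM and *Kdr* at 0 and 0.11 TPM. Neither was tested against EpiSCs, where *Pdgfra* had 2 counts against 31 in BV+SC+ cells (ratio 4.0, interval 1.02 to 34.5) and *Kdr* 1 against 7 (ratio 1.81, interval 0.232 to 81.4). Both were highest in the unsorted Day 3 cells, *Kdr* at 12.7 TPM without and 12.5 TPM with SGC0946 and *Pdgfra* at 7.78 and 5.49 TPM.

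The groups of all experiments were put in order of mean TPM. This order can only be described, because the gene lists and the RNA described in the labels differ. In it 3 members were highest in BV+SC+ cells (*Kit*, *Pecam1* and *Cd38*), *Alpl* in c-Kit+ cells and *Itgb3* and *Cd9* in c-Kit- cells. *Kitl* and *Cxcr4* were highest in Day 3 cells with and *Cd24a* in those without SGC0946. For *Kit* the order was BV+SC+ cells (158 ± 16.7 TPM, SD, n = 2), Day 3 cells with SGC0946, Day 3 cells without it, c-Kit+ cells (97.8 ± 2.52, n = 2), EpiSCs (6.62 ± 0.57, n = 3) and c-Kit- cells (4.03 ± 1.11, n = 2), and no neighbours in this order had overlapping libraries. For *Pecam1* the c-Kit+ libraries overlapped the levels of both SGC0946 libraries, and for *Kitl* c-Kit- cells, c-Kit+ cells, BV+SC+ cells and EpiSCs each overlapped the next. With TPM recomputed over the 28910 genes of both lists, *Kit* in c-Kit+ cells was at 137 TPM and moved from the fourth to the second place, the highest group was the same for all 10 members, and the whole order was the same for 5 of them.

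**Figure D5:**
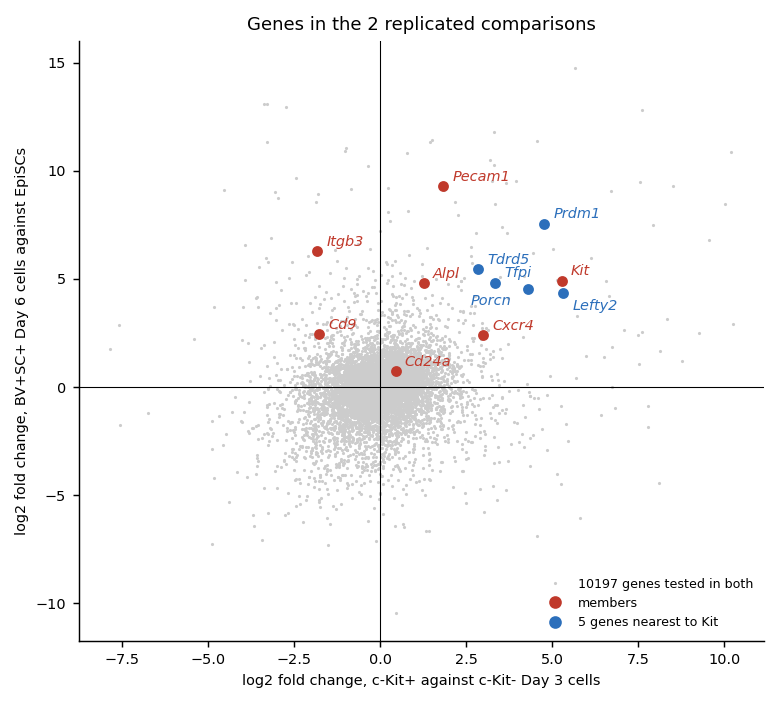
Log2 fold change of each gene between c-Kit+ and c-Kit- cells (horizontal axis) and between BV+SC+ cells and EpiSCs (vertical axis); grey points are the 10197 genes tested in both, red points the 7 members among them and blue points the 5 genes nearest to *Kit*. *Cxcr4*, *Alpl* and *Pecam1* share the upper right with *Kit*, and *Itgb3* and *Cd9* are in the upper left.

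The genes whose changes were most like those of *Kit* were sought by the distance between their 3 log2 changes and those of *Kit*, over 9950 genes with enough counts in all 3 experiments. The change of *Kit* between the sorted cells was set by the sort on its protein. Its change with SGC0946 rests on 1 library per condition, so the distances and ranks are descriptions. The nearest were *Porcn*, which lipid-modifies WNT proteins (distance 1.94), *Lefty2*, a NODAL inhibitor (2.10), *Tdrd5*, a Tudor domain protein of germ cells (2.55), *Tfpi*, an inhibitor of blood clotting (2.58), and *Prdm1*, the germ cell repressor BLIMP1 (2.79). The next gene, *Gstm2*, was at 2.93, so the order of these is not sharp. *Porcn* changed by 4.30 in c-Kit+ cells, 4.53 in BV+SC+ cells and 1.85 with SGC0946, where *Kit* changed by 5.28, 4.91 and 0.23. *Prdm1* is the gene behind the BV reporter, so its level in BV+SC+ cells was selected by the sort. By the same distance *Cxcr4* was the 27th gene and *Alpl* the 49th, while *Cd24a* was the 1621st, *Itgb3* the 5400th and *Cd9* the 6099th. *Pecam1*, *Kitl*, *Cd38* and *Fut4* were not ranked for want of counts in at least 1 group or experiment.

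A wider list of 20 surface antigens from other stem cell and lineage panels was counted in the same way. Of 18 tested in the sorted cells, 2 were called higher and 9 lower, with a median log2 change of -0.99, where 10.8% of all genes were higher and 13.6% lower. *Cd74* (-4.30 ± 0.76, adjusted p = 0.00172), *Cd44* (-3.58 ± 0.34, adjusted p = 5.00e-05) and *Thy1* (-2.24 ± 0.46, adjusted p = 0.00384) were lower, and *Bst2* was higher (2.95 ± 0.27, adjusted p = 4.14e-05). Between BV+SC+ cells and EpiSCs 5 of 19 were called higher and 8 lower, with a median of -0.31 and a background of 17.2% higher and 17.8% lower, among them *Thy1* (-6.24 ± 0.47), *Cd40* (-4.07 ± 0.70), *Cd44* (-3.66 ± 0.51) and *Eng* (3.62 ± 0.71). With SGC0946, *Bst2*, *Epcam* and *Pdpn* were past 2-fold higher and 0 of the 19 lower, with a median of 0.01. Among all genes, 6.33% were past 2-fold higher and 3.45% lower.

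Of the 29 partners and kin of the members, 17 were tested in the sorted cells, with 3 called higher, 6 lower and a median of -0.31. Of all genes there, 10.8% were called higher and 13.6% lower, with a median of 0.03. Between BV+SC+ cells and EpiSCs 13 were tested, with 4 higher, 1 lower and a median of -0.03. The shares over all genes were 17.2% higher and 17.8% lower, with a median of 0.05. Besides *Fut9*, *Cxcl12* and *Cd82*, the largest difference in the sorted cells was that of *Csf1r*, a receptor tyrosine kinase of the same class as c-Kit, which had 23.6 and 15.3 expected counts in c-Kit- and 0 in both c-Kit+ libraries, at least 6.18-fold lower. The largest in BV+SC+ cells were those of *Ackr3* and of *Fn1*, which encodes the integrin ligand fibronectin (3.06 ± 0.17, adjusted p = 1.15e-05). With SGC0946, 20 were over 1 TPM and 3 were past 2-fold higher, *Spp1*, *Bst1* and *Itga2b*, the last pair from at most 6 counts, with a median of 0.01. Of all genes, 6.33% were past 2-fold higher and 3.45% lower, with a median of 0.01.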

How the data were processed

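Bulk RNA-seq libraries of 6 groups were analysed, and the other samples of the series were not analysed here. The authors aligned reads with Bowtie2 and estimated expected counts and TPM per gene with RSEM (version 1.3.1 in the submitters' processing notes), and deposited both without scaling between libraries and without pooling replicates. The build in the labels is mm10. The EpiSC, BV+SC+ and SGC0946 libraries are labelled as total RNA depleted of ribosomal RNA, the sorted cells are described as mRNA, and the experiments were fitted apart. The paper's methods name an mRNA library kit for its RNA-seq, so the sources differ for the libraries labelled as total RNA.

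Expected counts were rounded and fitted with edgeR 4.0.16 under R 4.3.3 (quasi-likelihood test after filterByExpr and TMM scaling) over all genes, with Benjamini-Hochberg adjustment, and genes were called by the threshold of the study's methods, an unadjusted p-value. The SGC0946 libraries were compared by log2(TPM + 1), with a pseudocount of 1 TPM. Ratios of counts have exact 95% binomial (Clopper-Pearson) intervals. Folds against groups without a count use 3 counts per library. These intervals and floors cover counting error only. The fit was also run on simulated counts with the same spread setting for every gene, which does not check the p-values given here. Replicates differed by more than sampling noise. Symbols and coordinates come from GENCODE M21. BLAST+ 2.17.0 found stretches of at least 100 bases at 95% identity or more that *Pecam1*, *Cd9* and *Cd24a* transcripts share with 125, 10 and 1 other genes, so reads from those stretches are uncertain. Strand settings of the counting are not given in the sources used here.

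The members and lists were chosen with earlier results of these data known. Named besides the members were their direct partners, the 5 genes nearest to *Kit*, and in each list up to 4 genes with the largest called change. *Spred1*, *Spred2*, *Plcg1*, *Gstm2*, *Epcam*, *Pdpn*, *Cd151*, *Cd63*, *Igsf8* and the trophoblast genes with a log2 change were named after their values were seen. Alternatives were DESeq2 1.42.0, other size factors, other filters, an effective length offset, the replicate number as a block, an adjusted threshold, left-out replicates, and for SGC0946 another pseudocount, filters, CPM and TMM-scaled TPM.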

Additional observations from a re-analysis of the deposited data

How the results depend on the processing

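The counts of members called were the same under DESeq2, RLE factors, library totals and an effective length offset (4 higher and 2 lower in c-Kit+ cells, 7 higher and 0 lower in BV+SC+ cells). Requiring at least 10 counts in every library, which leaves 4 members to test in each comparison, gave 1 higher in c-Kit+ cells and 3 higher in BV+SC+ cells. Over all genes that filter moved the number called higher from 1194 to 711 and lower from 1499 to 998 in the sorted cells, and higher from 2023 to 1169 in BV+SC+ cells, where no filter gave 3123. Without a filter on low counts 4 members were higher and 2 lower in c-Kit+ cells and 8 higher in BV+SC+ cells, *Kitl* being the added one. At an adjusted p below 0.05, 4575 genes passed in the sorted cells with edgeR and 2755 with DESeq2. With each replicate left out in turn, 3 to 4 members were higher and 2 lower in c-Kit+ cells, and 7 to 9 higher and 0 to 1 lower in BV+SC+ cells, the lone library of a group being assumed to vary like the others. *Kitl* turned to -0.64 with the effective length offset and to -0.44 without c-Kit- replicate 1. Leaving out each replicate gave *Kitl* -0.44 to 1.03 in the sorted cells and *Cd24a* -1.41 (without BV+SC+ replicate 1) to 1.55 (without replicate 2) in BV+SC+ cells. With SGC0946, a pseudocount of 0.1 TPM put 2 members past 2-fold, *Itgb3* and *Cd38*, and the other settings 1. By the largest of the 3 differences instead of the distance, 3 of the 5 genes nearest to *Kit* were shared, and requiring 5 TPM on average in every experiment left all 5. With the replicate number as a block, 4 members were higher and 2 lower in c-Kit+ cells and 7 higher in BV+SC+ cells, and no call changed. Deviations of same-numbered sorted libraries correlated at 0.11 across genes, with 2 pairs, and no source calls them pairs. Depth limits *Fut4*, *Cd38* and *Kitl* in the sorted cells and all low members in EpiSCs.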

Other observations

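In the unsorted Day 3 cells *Kit* was high in a library with a low sum of pluripotency genes. The Day 3 library without SGC0946 held 102 TPM of *Kit*, 133 TPM of *Cxcl12* and 15.6 TPM of *Cxcr4*, with 156 TPM of the 4 pluripotency genes summed and 1061 TPM of the 6 trophoblast genes. The library with SGC0946 held 119.6 TPM of *Kit* with 834 TPM of the pluripotency and 843 TPM of the trophoblast genes. The c-Kit+ libraries held 96.0 to 99.6 TPM of *Kit* with 2030 to 2083 TPM of the pluripotency genes. Fibroblast genes (*Col1a1*, *Col1a2*, *Col3a1*, *Postn* and *Dcn*) summed to 254 and 252 TPM in the unsorted libraries without and with SGC0946, 33.8 to 35.8 TPM in c-Kit+, 97.7 to 121 TPM in c-Kit-, 3.63 to 5.25 TPM in BV+SC+ and 4.58 to 10.8 TPM in EpiSC libraries. Extraembryonic endoderm genes (*Gata4*, *Gata6*, *Sox17*, *Afp*, *Ttr* and *Dab2*) summed to 29.1 and 26.8 TPM in the unsorted libraries and to at most 30.1 TPM elsewhere. The unsorted and the sorted libraries differ in their gene lists and in the RNA described in the labels, and the part of this in the levels was not tested.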
